A study of Rattus norvegicus with 38 samples.

Results

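A stretch of 2 Mb on rat chromosome 17, from 70 to 72 Mb of the mRatBN7.2 assembly, was examined in the H3K27ac ChIP-seq peak lists of the motor cortex and the substantia nigra (SN). Its members are all peaks whose midpoint lies in that stretch: 221 of 80765 motor cortex peaks and 56 of 70744 SN peaks, or 277 of the 151509 peaks listed in all. The SN list is much longer than the count of SN peaks in the study's text, while the motor cortex list is about as long as stated there, and which SN peaks the study counted is not given in the sources used here. The window was chosen by the study's test of rotenone against vehicle, in which peaks assigned to Celf2 or Gata3 stood close together here. Those test results belong to the study, are not reprinted, and support nothing that follows.

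The animals were male Lewis rats aged 8 to 10 months. Rotenone, a pesticide that blocks mitochondrial complex I, was injected intraperitoneally at 2.8 mg/kg once daily for 21 days in 5 rats, and 4 rats received vehicle, which the sample labels call PBS and the protocol calls Miglyol. Motor cortex and SN were dissected 24 h after the last injection, and the SN samples are labelled ventral midbrain. The 18 tissue libraries and 2 input libraries, all input being labelled cortex, were sequenced in 38 runs. Peaks were called once per region on reads merged over exposed and unexposed animals alike, so each region has a single list. The lists give positions only, without a height, count or score for any rat. The study describes higher read coverage in the motor cortex than in the SN, which the lists cannot quantify. No difference between rotenone and vehicle and no error between rats could be derived from them, and every comparison below is a description of 2 pooled lists. Both tissues are mixtures of cells, and fewer cells of a type cannot be told apart from less acetylation per cell. The lists name no genes, so marker genes of neither tissue were available to check the dissection.

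Acetylation of histone H3 at lysine 27 is laid down by the coactivators p300 and CBP and marks active promoters and enhancers. Enhancers of genes with complex expression patterns can lie far from the promoter, often within stretches that hold few protein-coding genes. Celf2 encodes an RNA-binding protein of the CELF family that controls alternative splicing and mRNA stability and is abundant in neurons. Gata3 encodes a zinc-finger transcription factor that directs T-cell differentiation and takes part in the specification of GABAergic neurons in the embryonic midbrain.

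In the RefSeq gene order of a newer assembly, GRCr8, Gata3 and Celf2 are neighbouring protein-coding genes. Between them are listed 8 long non-coding RNAs, 3 pseudogenes and 1 small nucleolar RNA, and 0 protein-coding genes. The protein-coding genes before Gata3 are Kin, which encodes a nuclear zinc-finger protein, Atp5f1c, for a subunit of mitochondrial ATP synthase, and Taf3, for a subunit of the general transcription factor TFIID. After Celf2 follow Usp6nl, for a GTPase-activating protein of Rab proteins, Echdc3 and Proser2. Positions of that assembly were not carried over to mRatBN7.2. The study's own annotation of peaks calls the widest motor cortex peak of the window a promoter peak of Celf2. It labels the annotated peaks at lower coordinates intergenic and those at higher coordinates intronic in Celf2, so that the gene runs towards higher coordinates from there. These labels were available only for peaks that passed the study's test of rotenone against vehicle. They do not describe every peak on either side. RefSeq lists 50 transcripts of Celf2, and where their other starts lie in mRatBN7.2 was not analysed here. The coordinates below this peak are called the Gata3 side, and the peak with the coordinates above it is called the Celf2 side. The names do not assign peaks to a gene, and the position of Gata3 in mRatBN7.2 was not determined. This division was made after the peaks had been seen.

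The window was crowded with motor cortex peaks and thinly filled with SN peaks. Its 221 motor cortex peaks covered 477 kb, and its 56 SN peaks covered 73.5 kb. The motor cortex list thus held 3.95 times as many peaks and 6.48 times as many covered bases, with a mean peak width of 2157 bp against 1313 bp. Over all chromosomes the same ratios were 1.14 and 1.39, and over chromosome 17 the ratio of peaks was 1.21, with 5199 kb covered in the motor cortex against 3471 kb in the SN. Sums over separately called lists move with how much was called in each. Keeping only the 40000 widest peaks of each list, so that both held equally many, gave a ratio of covered bases of 6.80 in the window. This filter made the number of peaks equal and not their widths. The narrowest peak kept measured 1259 bp in the motor cortex and 858 bp in the SN. The ratio over all chromosomes under this filter is not given here, so 6.80 has no value beside it. With the shorter SN list that the study counted, the ratio over all chromosomes would be higher than 1.14. The part that the higher motor cortex coverage plays in the number, width and matching of peaks was not tested, here or in the comparisons that follow.

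**Figure D1:**
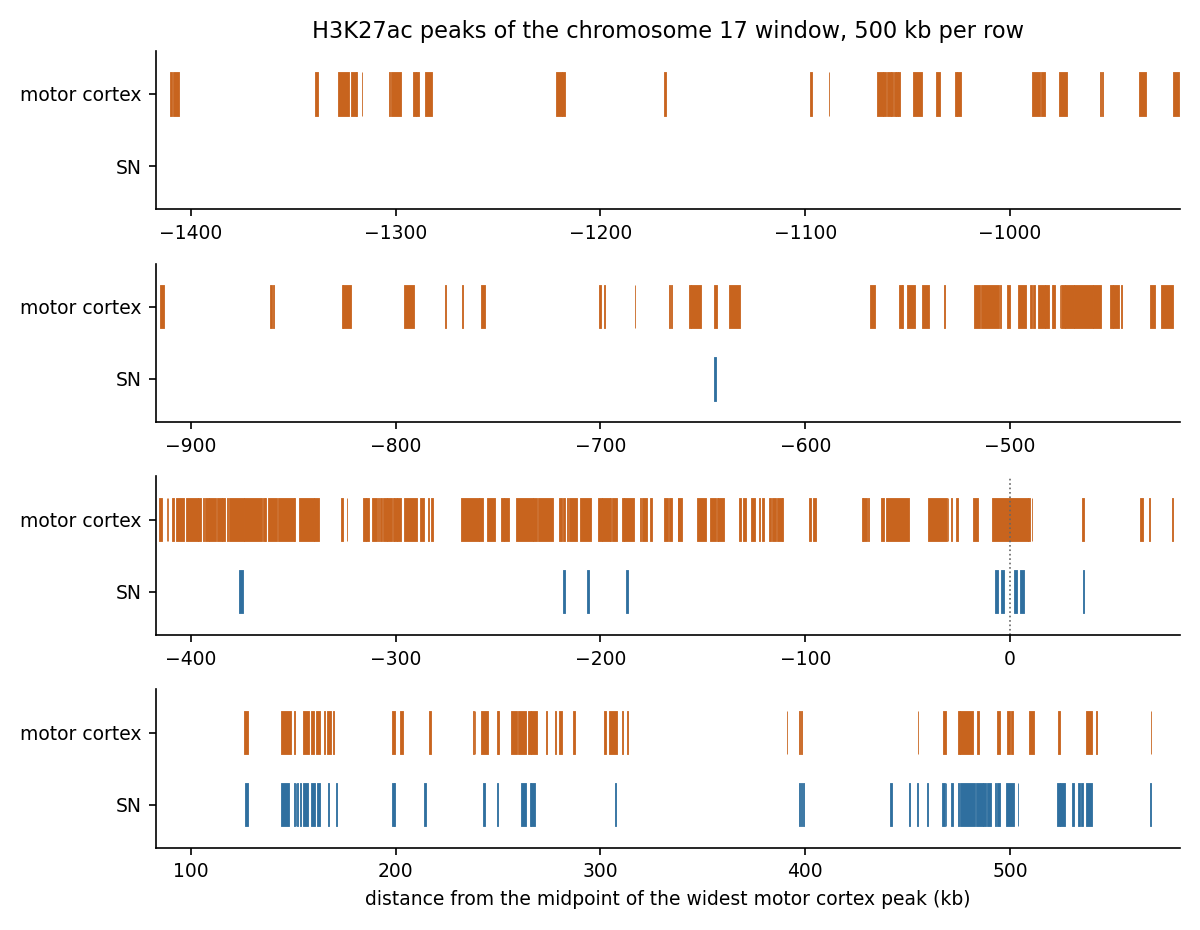
H3K27ac peaks of the window in 4 rows of 500 kb, with the motor cortex above and the SN below; the horizontal axis is the distance in kb from the midpoint of the widest motor cortex peak (dotted line), and each box spans 1 peak to scale. The SN track is empty in the first row and holds 5 peaks before the widest motor cortex peak, where the motor cortex track holds 169.

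The 2 flanks of the widest peak differed. On the Gata3 side there were 169 motor cortex peaks covering 385 kb and 5 SN peaks covering 5.45 kb, a ratio of 33.8 in peaks and 70.6 in bases. On the Celf2 side there were 52 motor cortex peaks covering 91.5 kb and 51 SN peaks covering 68.1 kb, and the ratios of 1.02 and 1.34 lay close to those of all chromosomes. The excess of motor cortex peaks over SN peaks in the window therefore came from the Gata3 side.

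Steps of 500 kb show the same course. The first of them held 35 motor cortex peaks and 0 SN peaks. The next 500 kb held 45 and 1, and the third, which ends beyond the widest peak, held 96 and 9. In the last the numbers were 45 and 46, the only step in which the SN list held as many peaks as the motor cortex list.

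Within the Gata3 side, motor cortex peaks were unevenly spread. The first 900 kb held 59 peaks that covered 12.2% of the sequence, or 6.56 peaks per 100 kb. The following 508 kb, up to the widest peak, held 110 peaks that covered 54.1%, or 21.6 peaks per 100 kb. This cut was not set in advance and lies where a dense cluster begins, at 70899304. The contrast thus depends in part on where the cut was put. The median width was 1297 bp in the first stretch and 1551 bp in the second. Peaks of 5 kb or more numbered 2 of 59 and 15 of 110. SN peaks covered 0.0829% of the first stretch and 0.926% of the second. Among the bins of 100 kb, the fullest in the motor cortex began at 71000001, with 66.0 kb covered by 24 peaks, whereas SN peaks covered 1.67 kb of it. For the SN the fullest bin was the last of the window, with 22.9 kb against 11.2 kb in the motor cortex. The SN covered more bases than the motor cortex in 2 of the 20 bins, both within the last 200 kb.

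**Figure D2:**
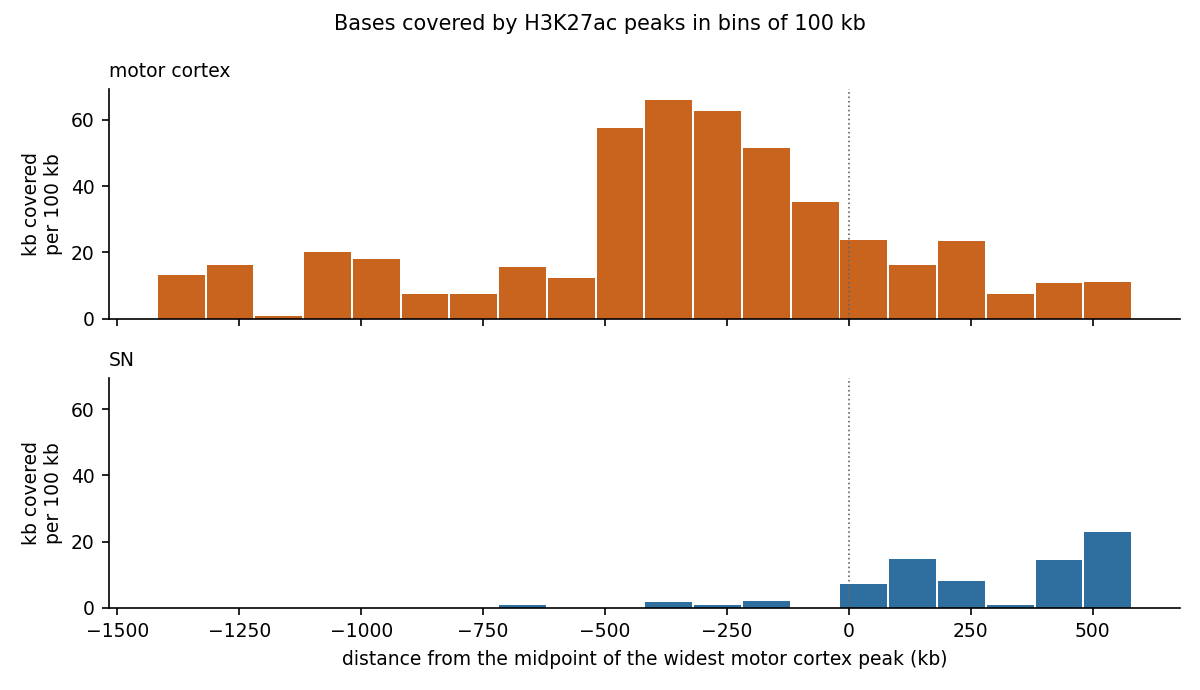
Length covered by peaks in each of 20 bins of 100 kb (bars, in kb), motor cortex above and SN below on the same scale, against the distance in kb of the bin's left edge from the midpoint of the widest motor cortex peak (dotted line). Motor cortex coverage rises to 66.0 kb in the bin that begins at 71000001, while SN peaks cover at most 2202 bp of any of the first 14 bins, 7198 bp of the bin that holds the line, and most, 22.9 kb, in the last bin.

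The widest motor cortex peak is the Celf2 promoter peak, from 71408288 to 71425817. Its 17530 bp exceeded 99.8% of all motor cortex peaks. In the SN the same stretch was broken into 4 separate peaks, which together covered 37.3% of it. The first 2, at 71409638 to 71411161 and 71412796 to 71413973, measured 1524 and 1178 bp. The others, at 71419067 to 71420728 and 71421875 to 71424042, measured 1662 and 2168 bp. All 4 lay wholly inside the motor cortex peak, which was the only motor cortex member to overlap 3 or more SN peaks. Among all other motor cortex peaks, 912 of 80544 did so, and the window was not richer in such peaks. Both tissues thus had peaks within the stretch annotated as a Celf2 promoter peak, as 1 block in the motor cortex and in pieces in the SN. Where a start of Celf2 lies within that stretch was not analysed.

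**Figure D3:**
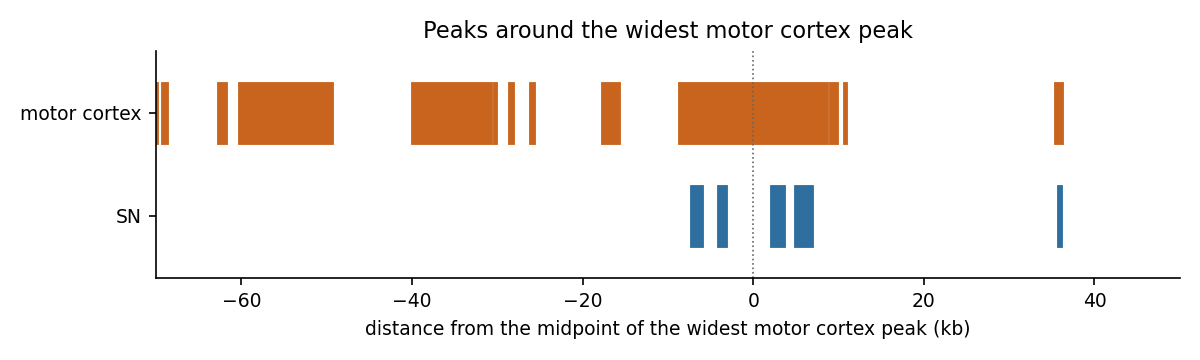
Peaks within 70 kb to the left and 50 kb to the right of the midpoint of the widest motor cortex peak (dotted line), with distance in kb on the horizontal axis and each box drawn to scale. The 17530 bp motor cortex peak spans 4 SN peaks, and the broad motor cortex peaks of 11170 and 9510 bp to its left have no SN peak beneath them.

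The 5 motor cortex members next in width, of which the last 2 tie, stood without any SN peak. The peak from 71356612 to 71367781 was 11170 bp wide and that from 71376945 to 71386454 was 9510 bp wide, and the first of them began 51.7 kb before the Celf2 promoter peak. At lower coordinates followed peaks of 8942 bp, from 70948450 to 70957391, of 8762 bp, from 71043111 to 71051872, and again of 8762 bp, from 71148724 to 71157485. The narrowest of these 5 was wider than 98.7% of the motor cortex list. Of the 20 motor cortex members of 5 kb or more, 17 lay on the Gata3 side, which held 169 of all 221 members. Such peaks were 10.1% of the members there and 5.77%, or 3 of 52, on the Celf2 side. All 20 together made up 9.05% of the members, against 5.19% of all other motor cortex peaks.

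Motor cortex members had a median width of 1369 bp (interquartile range 718 to 2749 bp), against 1245 bp (702 to 2152 bp) for all other peaks of the list. Both distributions were close at the lower quartile and parted above the median. The SN members had a median of 960.5 bp (660 to 1575 bp), against 994 bp (539 to 1763 bp) elsewhere. The medians were thus close, while the widths spread less in the window. Its lower quartile was higher and its upper quartile lower, and the 90th percentile was 2501.5 bp against 2967 bp elsewhere.

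**Figure D4:**
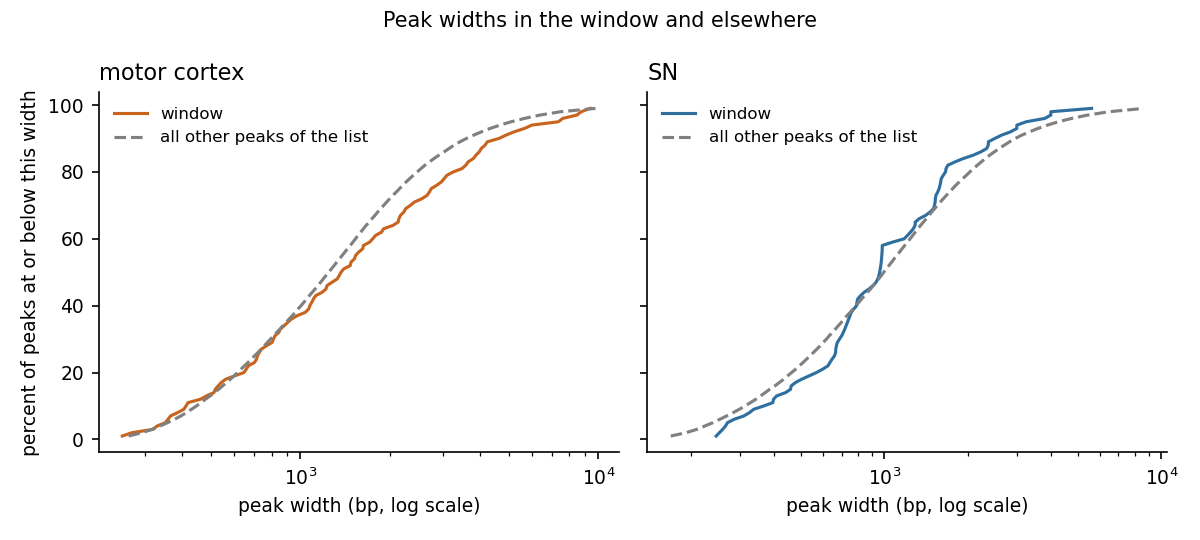
Cumulative widths of peaks (horizontal axis in bp on a log scale, vertical axis the percent of peaks at or below that width, 1st to 99th percentile) in the window (solid) and among all other peaks of the same list (dashed). The motor cortex curve of the window lies to the right of the dashed curve in the upper part, with an upper quartile of 2749 against 2152 bp, whereas the SN curves cross.

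The widest SN member ran from 71892664 to 71900225, with 7562 bp, and overlapped a motor cortex peak of 6210 bp. It exceeded 98.6% of SN peaks and was the only SN member of 5 kb or more. Such peaks were thus 1.79% of the SN members, against 3.57% of all other SN peaks. Widths of 3990 bp were found for the peaks from 71560755 to 71564744 and from 71915258 to 71919247, and widths of 3008 and 3006 bp for those from 71954247 to 71957254 and from 71900710 to 71903715. All 5 overlapped a motor cortex peak, and all lay on the Celf2 side, which held 51 of the 56 SN members.

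Few motor cortex members were matched in the SN. Only 34 of 221, or 15.4%, overlapped an SN peak by at least 1 bp (95% Wilson interval 11.2% to 20.7%, for counting error alone and with peaks taken as independent), against 55.2% of all other motor cortex peaks. By length, 10.6% of the motor cortex bases of the window were also covered in the SN, against 52.8% elsewhere. On the Gata3 side the matched share was 5 of 169 peaks, or 2.96%, and on the Celf2 side 29 of 52, or 55.8%. With only 5 SN peaks on the Gata3 side and 56 in the window, few motor cortex peaks could be matched. The low shares thus largely restate the counts of peaks and are not a separate result. No test of these differences was made, since the window had been picked with results of these data known and no value per rat exists.

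The SN members were matched about as often as the rest of their list. Of the 56 SN members 38, or 67.9%, overlapped a motor cortex peak (95% Wilson interval 54.8% to 78.6%), against 65.3% of all other SN peaks. The 5 SN peaks of the Gata3 side lay wholly inside motor cortex peaks. The SN peak at 70772668 to 70773413 covered 52.6% of a motor cortex peak of 1419 bp, and that at 71040541 to 71042214 covered 22.1% of one of 7587 bp. For the peak at 71198670 to 71199501 the share was 77.3% of 1076 bp. The last pair, at 71210240 to 71211476 and 71229296 to 71230260, covered 23.5% of 5253 bp and 19.8% of 4867 bp. SN peaks on this side thus added no base to those covered in the motor cortex.

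The 18 SN members without a motor cortex peak all lay on the Celf2 side. There they were 35.3% of the 51 SN members, about the 34.7% unmatched among all other SN peaks. The widest, at 71941653 to 71944025, measured 2373 bp, and the next, at 71905708 to 71907572 and 71903924 to 71905451, measured 1865 and 1528 bp. Those at 71888493 to 71889473 and 71858421 to 71859397 measured 981 and 977 bp. All 5 stood in the last 142 kb of the window. The 187 unmatched motor cortex members had a median width of 1330 bp against 1622.5 bp for the 34 matched ones, while over all chromosomes the medians were 915 and 1589 bp.

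In 29 cases 1 motor cortex peak and 1 SN peak overlapped each other and no further peak. The motor cortex peak was the wider in 22 of these pairs, or 75.9%, with a median ratio of widths of 1.27, against 58.2% and 1.06 among 31809 such pairs elsewhere. The median share of the motor cortex peak that the SN peak covered was 75.9% in the window and 89.1% elsewhere. The pairs with the most unequal widths were those of the peak from 71721339 to 71725166, which was 5.34 times as wide as its SN partner, and of the peak from 71228431 to 71233297, which was 5.04 times as wide. At the far end of the window the order turned round, and the SN peak was the wider in 7 of the last 8 pairs, from the pair at 71872059 onwards.

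The SN list was empty over long stretches in which the motor cortex list held peaks. No SN peak was listed between 68668495 and 70772667, a stretch of 2104 kb of which 773 kb belong to the window. It held 64 motor cortex peaks covering 109 kb, of which 51 peaks were members. The 1332 kb of it outside the window held the other 13, which covered 17.5 kb. Among the 70721 stretches between neighbouring SN peaks of the genome, this one held the most motor cortex peaks, and the runner-up held 56, but by the motor cortex bases covered it ranked 5. With peaks under 1000 bp left out, the fullest stretch was a different one, from 68552049 to 71040540, with 65 motor cortex peaks against 62 in the runner-up. A further 3 long stretches of this kind followed on the Gata3 side. From 70773414 to 71040540 there were 41 motor cortex peaks, from 71042215 to 71198669 there were 33, and from 71230261 to 71409637 there were 32, which ranked 7, 18 and 22 among all stretches by peaks and 7, 8 and 18 by bases. The stretches of highest rank were seen first and ranked afterwards, and the ranks take no account of the length of a stretch.

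The names of the peaks carry the running numbers of the peak caller, which rise along chromosome 17 without a break in order in both lists, so that a number missing from a list marks a call that is not in it. Across the stretch of 2104 kb only 4 SN numbers were missing, and across the other 3 stretches 1, 1 and 3. A stretch of 39.2 kb without SN peaks on the Celf2 side, from 71684865 to 71724098, lacked 5. What part the unlisted calls play in the SN-free stretches was not tested. Over the whole window, 45.5% of SN numbers and 53.9% of motor cortex numbers were listed, against 47.6% and 58.2% over all chromosomes.

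Joining peaks of a list that lay within 10 kb of each other gave 42 clusters in the motor cortex and 18 in the SN. The largest motor cortex cluster, from 71148724 to 71306105, joined 39 peaks with 95.2 kb covered over a span of 157 kb, and held 3 SN peaks. It ranked 38 by covered length among 32102 such clusters of the motor cortex. The cluster before it in size ran from 70985375 to 71079789 with 24 peaks and 73.1 kb, and the third from 70899304 to 70971575 with 19 peaks and 49.7 kb. Those held 1 and 0 SN peaks. All 3 stood on the Gata3 side, which held 169 of the 221 motor cortex members. These clusters lay between 509 and 102 kb from the Celf2 promoter peak, and together they covered 218 kb.

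SN clusters were smaller and lay elsewhere. The largest, from 71858421 to 71921192, joined 16 peaks with 25.9 kb covered and ranked 667 among 24835 SN clusters. Next came those from 71560755 to 71588488, with 10 peaks and 13.2 kb, and from 71940101 to 71957254, with 6 peaks and 9.48 kb. All 3 belonged to the Celf2 side, which held 51 of the 56 SN members. The motor cortex listed 8, 8 and 2 peaks within the same spans.

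Some of the window carried no acetylation peak in either tissue. The longest empty stretch, at 71730600 to 71808018, measured 77.4 kb. Those at 70248865 to 70319395 and 70011113 to 70077631 measured 70.5 and 66.5 kb. The first lay on the Celf2 side and the others on the Gata3 side.

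The bounds of the window cut through no peak. At 70 Mb the nearest motor cortex peaks were one from 70006704 to 70007879 inside and one from 69980905 to 69982790 outside, and the nearest SN peak outside ended at 68668494. At 72 Mb, the motor cortex peak at 71985773 to 71986138 stood inside and that at 72008170 to 72009854 outside, each overlapping an SN peak. The window from 68 to 70 Mb held 34 motor cortex and 28 SN peaks, and that from 72 to 74 Mb held 104 and 77. Their ratios of peaks were 1.21 and 1.35. The first is an average over an uneven window, whose last 1332 kb held 13 motor cortex peaks and no SN peak.

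Among the 1308 windows of 2 Mb with any peak, that from 70 to 72 Mb ranked 2 by number of motor cortex peaks and 9 by the length they covered, and 521 and 527 by the same measures in the SN. The median window held 53 motor cortex and 42 SN peaks. Among the 925 windows with at least 50 peaks in both lists together and at least 1 in the SN, its ratio of covered bases ranked 11. The other 19 of the 20 windows richest in motor cortex peaks held between 132 and 280 SN peaks, all above its 56. These ranks describe where the window stands and are not a test.

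**Figure D5:**
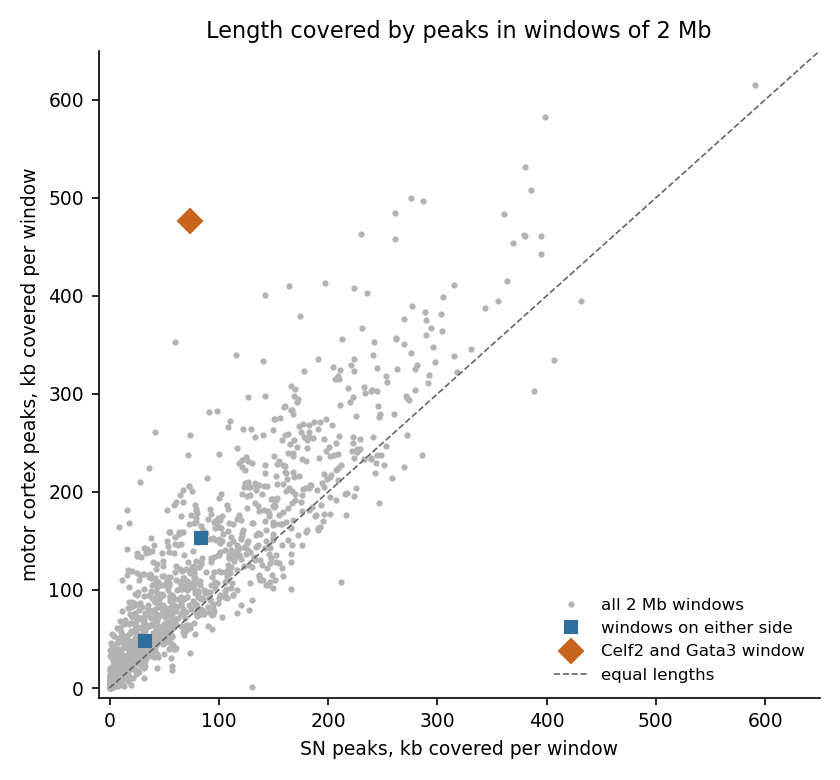
Length covered by motor cortex peaks (vertical axis, kb) against length covered by SN peaks (horizontal axis, kb) in each of 1308 windows of 2 Mb (grey), with the line of equal lengths dashed. The window from 70 to 72 Mb (diamond, 477 against 73.5 kb) stands above the cloud, and both windows on either side (squares) lie within it.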

How the data were processed

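The authors deposited 1 H3K27ac peak list per brain region, which holds the position of each peak in bp and its numbered name. Starts in these BED files are zero-based, and 1 was added to each start for printing. Per the labels and methods, Trim Galore 0.6.7 trimmed the reads, Bowtie2 2.4.4 aligned them to mRatBN7.2, and Picard 2.6.0 dropped duplicates. Alignments of all animals of a region were then merged, and MACS2 2.2.7.1 called peaks on them, with merged input as control. The filter behind missing peak numbers is not given in the sources used here. No column of signal, count or score was present, so the depth behind a peak cannot be read from the lists and no test was made. The study describes higher coverage in the motor cortex than in the SN.

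Members, widths, clusters and windows were computed with Python 3.11.15, pandas 2.3.3 and numpy 2.4.6, overlaps with bedtools 2.31.1, and intervals with scipy 1.17.1. Overlap, merging and window counts were tested on simulated peaks. Named peaks were the 5 widest and the 5 widest unmatched of each list, those overlapping 3 or more peaks, the 3 largest clusters, the 3 longest empty stretches and those at the bounds. The peaks of the Gata3 side, paired peaks and SN-free stretches were named after their values were seen. The window, this rule and the analyses were chosen with earlier results of these data known. Gene names came from RefSeq on GRCr8, where both Celf2 and Gata3 matched. The labels promoter, intergenic and intronic came from the study's annotation of peaks that passed its test. The study's differential acetylation values were not used. No sequence is printed, since no genome of mRatBN7.2 was used here.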

Additional observations from a re-analysis of the deposited data

How the results depend on the processing

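The values that moved by more than 1.5 times are given first, and some that moved less come after them. Those under filters on width come from fewer peaks by construction. Peaks of at least 1000 bp numbered 138 in the motor cortex and 23 in the SN, with 15 and 18 shared and median widths of 2254 and 1662 bp, and 111 and 2 of them lay on the Gata3 side. The 40000 widest peaks of each list, an alternative chosen after seeing the data, left 119 and 31 in the window, 17 and 20 shared, and 96 and 3 on the Gata3 side. Merging neighbours within 1000 bp left 132 motor cortex peaks with a median width of 2141.5 bp, 90 of them on the Gata3 side. When each peak of a pair had to cover 50% of the other, 21 peaks per list were shared. Joining within 5 kb gave 69 motor cortex clusters and within 20 kb 21. The ratio of covered bases stayed between 6.48 and 8.21 under the alternatives run for it, and the fullest stretch without SN peaks, a different interval in each list, held 58 to 65 motor cortex peaks. Merging left 40 SN peaks in the window, with 29 motor cortex and 31 SN peaks shared, all within 1.5 times of the main values. Leaving out rats was not possible with pooled lists. No paired analysis was possible because the lists pool all rats of a region and carry no replicate number. The lists hold no read depth, so an absent peak says only that none was listed.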

Other observations

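Other windows of 2 Mb also listed many more motor cortex peaks than SN peaks. Among the 276 windows with at least 100 motor cortex peaks, the one from 26 to 28 Mb on chromosome 8 had the highest ratio, with 110 motor cortex and 18 SN peaks, followed by that from 44 to 46 Mb on chromosome 7, with 128 and 26. The chromosome 17 window came next, and after it the window from 112 to 114 Mb on chromosome 8, with 176 and 46. The 14 windows with a higher ratio of peaks than the chromosome 17 window held 43 to 128 motor cortex peaks each, against its 221. On chromosome 17 itself, the window from 58 to 60 Mb held 50 motor cortex and 8 SN peaks. The genes of these windows were not looked up, and no explanation was tested.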
